A study of Mus musculus with 31 samples.

Results

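The nuclear genes for subunits of the mitochondrial respiratory chain and of ATP synthase were followed in mouse mammary tissue that carried between 0 and 4 functional alleles of Stat5a and Stat5b. They were chosen by symbol alone. Every gene in the deposited tables whose symbol starts with Nduf, Uqcr, Cox4 to Cox8 or Atp5 was taken, together with Sdha, Sdhb, Sdhc and Sdhd. Cox7a1, Cox8b and Cox6a2, forms of cytochrome c oxidase subunits found mainly in heart, skeletal muscle and brown fat, were left out and are used as markers. The rule gave 87 of the 22609 genes: 42 named for complex I, 4 for complex II, 8 for complex III, 16 for complex IV and 17 for ATP synthase, also called complex V. Of these, 80 encode subunits or a factor bound to them. The others are Ndufaf1 to Ndufaf4, which help to build complex I, Cox4nb, which belongs to a protein complex of the endoplasmic reticulum, and Atp5s and Atp5sl, which are not ATP synthase subunits. Ndufa4 is named for complex I but is now placed in complex IV. The subunits encoded by mitochondrial DNA were not analysed here.

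Poly(A) RNA was sequenced from whole mammary tissue without lymph nodes at day 6 of pregnancy and at parturition, which means within 12 hours of delivery, in mice of mixed 129SV::FVB/N::C57BL/6 strain. The ages of the mice are not given in the labels. Null mice (Stat5abfl/fl;MMTV-Cre) lost both genes by Cre recombinase under the mammary tumour virus promoter, line A, so that cells without active Cre kept them. The other genotypes carried their knockout alleles in every cell. B mice (Stat5abnull/Stat5a-) kept 1 Stat5b allele, A mice (Stat5abnull/Stat5b-) kept 1 Stat5a allele, BB mice (Stat5a-/-) kept 2 Stat5b alleles and AB mice (Stat5ab+/null) kept 1 allele of each gene. AABB mice had 4 functional alleles. Their samples are labelled wild type, although the series' design text also counts floxed mice without Cre as AABB. Each genotype has 3 listed samples at day 6, 18 in all, while the 13 samples at parturition are 3 of B and 2 of each other genotype.

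The deposited tables hold 1 column per genotype and stage, the authors' mean over those samples, in FPKM, a unit of fragments corrected for transcript length and for sequencing depth. Every value below is therefore a mean with neither SD nor n, differences could not be set against the spread between samples, and no test was run. The number of reads behind a value is unknown. A level is FPKM after scaling the 6 columns of a stage to each other. A ratio is the log2 ratio of scaled FPKM + 1 to the AABB column, where a negative value means a lower level than in AABB, and a gene counts as lower or higher from 1.5-fold upward, with 2-fold as a second count. All 5 comparisons of a stage share the same AABB column. The stages were scaled separately, so levels are compared within a stage only. Of the 87 genes, 84 reached 1 FPKM in at least 2 columns at each stage. Cox7b2 and Cox8c stayed below that or at 0. Ndufs5 was listed at 0 in all columns but 1, where it stood at 0.0256.

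The respiratory chain lies in the inner mitochondrial membrane. Complex I takes electrons from NADH and complex II takes them from succinate. Both pass them through ubiquinone to complex III, and cytochrome c carries them on to complex IV, where oxygen is reduced to water. Complexes I, III and IV pump protons across the membrane, and ATP synthase uses the returning protons to make ATP. In the mammary gland, epithelial cells gain mitochondria on the way to lactation, and the brown and white adipocytes of the fat pad hold mitochondria of their own.

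Most of these genes start at promoters rich in CpG that are known to bind NRF1, ETS-family proteins such as GABPA, and YY1. The window from 250 bases before to 50 bases after the RefSeq start (GRCm38.p6) was found for 72 of the 87 genes by symbol or synonym, 6 of which have more than 1 window and were counted once, as holding a motif if any window did. An NRF1 motif (GCGCANGCG, either strand) was present in 21 of the 72 genes (29.2%), against 7.03% of all genes with a window and 14.3% of the other genes that passed the filter at day 6. The ETS motif CCGGAAG was present in 17 (23.6%, against 9.93% and 18.7%) and the YY1 motif AAGATGGCG in 8 (11.1%, against 1.64% and 3.28%). The STAT5 motif TTCNNNGAA was present in 5 (6.94%, against 9.55% and 8.39%). At least 1 of the first 3 motifs was present in 38 genes (52.8%), against 16.5% of all genes and 31.7% of the other genes that passed. By complex, the NRF1 motif was present in 9 of 37 genes of complex I (24.3%), 2 of 3 of complex II (66.7%), 2 of 5 of complex III (40%), 1 of 11 of complex IV (9.09%) and 7 of 16 of complex V (43.8%). These are counts of letters and do not show binding.

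Promoters of 4 genes that recur in the results are shown from 250 bases before to 30 bases after the start, 5′ to 3′, with each motif match in capitals. All lie on the minus strand of GRCm38.p6. Uqcr11 (chr10:80406792-80407071) holds an ETS match 66 bases before the start and an NRF1 match across the start. Cox6a1 (chr5:115348929-115349208) holds 3 NRF1 matches, of which 2 overlap in the first capital run, and 1 ETS match on the other strand. Atp5o (chr16:91931601-91931880) holds a STAT5 match 24 bases before the start and an NRF1 match after it. Atp5g1 (chr11:96075602-96075881), the gene with the lowest ratio of the whole set in Null at parturition, holds none of the 4 motifs in this window.
Uqcr11: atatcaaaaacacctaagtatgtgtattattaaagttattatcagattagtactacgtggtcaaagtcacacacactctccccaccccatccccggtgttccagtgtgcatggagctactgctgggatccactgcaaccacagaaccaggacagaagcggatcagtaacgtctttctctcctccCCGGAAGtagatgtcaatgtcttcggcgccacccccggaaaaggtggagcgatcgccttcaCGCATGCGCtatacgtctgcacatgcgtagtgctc
Cox6a1: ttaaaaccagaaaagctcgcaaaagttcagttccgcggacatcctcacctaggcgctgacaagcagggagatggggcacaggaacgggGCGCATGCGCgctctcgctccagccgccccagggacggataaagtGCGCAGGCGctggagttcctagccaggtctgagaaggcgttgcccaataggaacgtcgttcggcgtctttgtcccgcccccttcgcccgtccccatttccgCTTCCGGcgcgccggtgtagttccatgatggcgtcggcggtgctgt
Atp5o: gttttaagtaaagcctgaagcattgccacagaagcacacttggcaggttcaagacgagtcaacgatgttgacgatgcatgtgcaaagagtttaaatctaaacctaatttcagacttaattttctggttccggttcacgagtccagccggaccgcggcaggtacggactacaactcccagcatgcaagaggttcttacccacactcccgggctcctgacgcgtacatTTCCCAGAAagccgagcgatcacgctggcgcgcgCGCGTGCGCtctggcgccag
Atp5g1: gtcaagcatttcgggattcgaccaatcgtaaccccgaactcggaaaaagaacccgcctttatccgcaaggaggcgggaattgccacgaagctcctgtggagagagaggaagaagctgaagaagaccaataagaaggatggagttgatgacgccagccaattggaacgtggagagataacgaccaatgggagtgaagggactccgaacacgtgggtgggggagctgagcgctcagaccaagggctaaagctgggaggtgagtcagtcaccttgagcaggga

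As a check of the labels, Stat5a stood at 13.6 in Null, 12.5 in B, 15.9 in A, 3.67 in BB, 13.4 in AB and 33.6 in AABB at day 6, and at 6.96 in Null, 8.60 in B, 16.5 in A, 4.30 in BB, 22.9 in AB and 70.8 in AABB at parturition. The column labelled B thus holds Stat5a transcript above the Stat5a knockout BB, and Stat5b stood at 10.6 at day 6 and 10.3 at parturition in the column labelled A. Gene-level FPKM does not separate transcripts of disrupted alleles, so genotype names below refer to the columns as labelled. The sum of FPKM over a column lay between 433958 and 528347 at day 6 and between 432576 and 1190590 at parturition, and scaling factors ran from 0.916 to 1.07 and from 0.794 to 1.13. Milk proteins took 64.1% of the FPKM in AABB at parturition and 0.475% in Null. All 12 luminal epithelial markers were measured in every column, and their summed level was 1624 in Null, 1345 in B, 1234 in A, 1405 in BB, 955 in AB and 2086 in AABB at day 6.

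At day 6 of pregnancy the respiratory chain genes as a set were lower in the 4 germline genotypes than in AABB, while in Null they were close to AABB. The median ratio over the 84 genes was -0.12 in Null, -1.04 in B, -0.94 in A, -0.83 in BB and -0.72 in AB. Over all 13367 genes tested the corresponding medians lay between -0.02 and 0.04. In B, 72 of the 84 genes were at least 1.5-fold lower, against 15.7% of all genes tested, and 50 were at least 2-fold lower, against 5.18%. In A the counts were 70 (16.6% of all genes) and 34 (5.54%). In BB they were 66 (12.9%) and 20 (3.6%), and in AB 55 (15%) and 7 (5.01%). None of the 84 was 1.5-fold lower in Null, where 6.46% of all genes were. None was 1.5-fold higher in any column, against 6.67% of all genes in Null, 19.6% in B, 18.8% in A, 13.4% in BB and 16.2% in AB. For 81 of the 84 genes both AABB and Null stood above all 4 other columns. AABB was the highest column for 70 genes and B the lowest for 69. How many of all genes tested had these orders was not counted. With the trend of the ratios on transcript length and GC content removed, the counts of 1.5-fold lower genes were 52 in B (9.83% of all genes after the same removal), 44 in A (9.89%), 41 in BB (10.2%) and 23 in AB (12.2%).

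**Figure D1:**
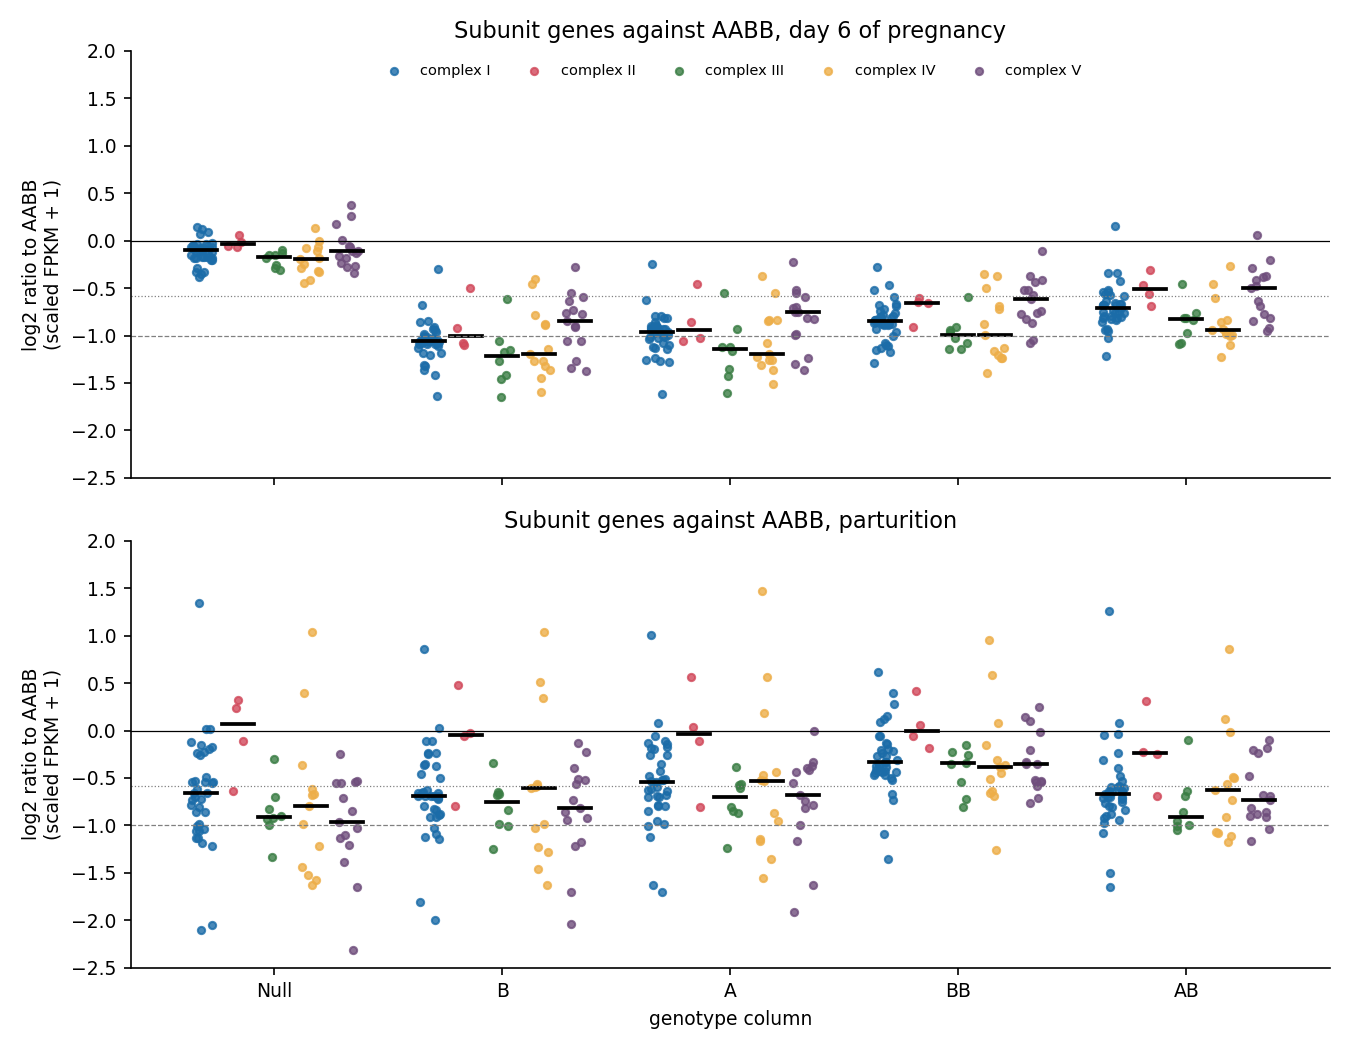
Log2 ratio to AABB of the subunit genes that passed the filter (points, 1 per gene) in each genotype column, coloured by complex, at day 6 of pregnancy (top) and parturition (bottom). Black bars are medians per complex, and dotted and dashed lines mark 1.5-fold and 2-fold lower. At day 6 Null lies near 0 and the other columns lie below it, and at parturition every column spreads widely, with complex II around 0.

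Complex I oxidises NADH. Its 37 measured subunit genes, Ndufa4 and its relative Ndufa4l2 included, had median ratios of -0.09 in Null, -1.05 in B, -0.96 in A, -0.85 in BB and -0.71 in AB. Ndufs1, the largest subunit of the electron input module, stood at 66.8 in Null, 55.3 in B, 57.5 in A, 47.6 in BB, 53.8 in AB and 68.5 in AABB, which made it the least lowered subunit gene of the complex in B and A. Ndufa5, an accessory subunit, stood at 137 in Null, 66.7 in B, 70.6 in A, 70.0 in BB, 73.7 in AB and 173 in AABB. It had the lowest ratio of the complex in BB (-1.29) and AB (-1.22). Ndufb7, an accessory subunit of the membrane arm, stood at 198 in Null, 94.2 in B, 105 in A, 112 in BB, 124 in AB and 254 in AABB, a ratio of -1.42 in B. Only Ndufa4l2, described below, was lower in B, at -1.64. In Null the ratios of the complex ran from -0.38 (Ndufa11) to 0.14 (Ndufb9), with Ndufb10 at 0.12 and Ndufv3 at 0.09. The 4 assembly factors Ndufaf1 to Ndufaf4 had medians of -0.13 in Null, -0.48 in B, -0.46 in A, -0.44 in BB and -0.40 in AB, nearer to 0 than the subunits in B, A, BB and AB but not in Null.

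Complex II, succinate dehydrogenase, also works in the TCA cycle. Sdha, its flavoprotein, stood at 271 in Null, 184 in B, 189 in A, 164 in BB, 210.0 in AB and 260.1 in AABB, and was lowest in BB. Sdhb, the iron-sulfur subunit, stood at 276 in Null, 135 in B, 141 in A, 152 in BB, 177 in AB and 286 in AABB. Both columns with high values, Null and AABB, were close to each other in these genes. The membrane anchors showed the same division, with Sdhc at 205 in Null, 95.9 in B, 98.8 in A, 136 in BB, 149 in AB and 207 in AABB. Sdhd stood at 189.6 in Null, 105 in B, 109.8 in A, 127 in BB, 135 in AB and 199 in AABB. Sdha had the smallest difference in B, -0.50, and Sdhc the largest, -1.10.

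Complex III passes electrons from ubiquinol to cytochrome c. Its 8 genes had medians of -0.17 in Null, -1.22 in B, -1.14 in A, -1.0 in BB and -0.82 in AB. Uqcrq, a small subunit, stood at 434 in Null, 165 in B, 171 in A, 246 in BB, 246 in AB and 519.9 in AABB and had the lowest ratio of all 84 genes in B, -1.65. Uqcrc1, a core protein, stood at 230.2 in Null, 103 in B, 105 in A, 148 in BB, 161 in AB and 285 in AABB. Its partner core protein Uqcrc2 stood at 177 in Null, 129 in B, 134 in A, 130.0 in BB, 144 in AB and 197 in AABB, with the smallest difference of the complex in B (-0.61). Uqcr10, a small subunit, had ratios of -0.13 in Null, -1.16 in B, -1.12 in A, -1.15 in BB and -0.97 in AB, the lowest of the complex in BB. Uqcr11, whose promoter is shown above, had ratios of -0.10 in Null, -1.41 in B, -1.35 in A, -1.03 in BB and -0.83 in AB. Uqcrh, the acidic hinge protein, was the most abundant of the complex per length, at 673 in AABB and 279.8 in B.

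Complex IV reduces oxygen. Its 13 measured genes had medians of -0.19 in Null, -1.19 in B, -1.19 in A, -1.0 in BB and -0.94 in AB. Cox5a, a subunit of its matrix side, stood at 334 in Null, 146 in B, 155 in A, 169 in BB, 189 in AB and 445 in AABB and had the lowest ratio of the complex in B, A, BB and AB. Cox4i1, the widespread form of subunit 4, stood at 1158 in Null, 546 in B, 551 in A, 662 in BB, 679.5 in AB and 1321 in AABB. Cox7c, a small membrane subunit, had the lowest Null ratio of all 84 genes, -0.44, from 383 in AABB to 282 in Null. Cox5b, which binds zinc, had a Null ratio of -0.33, and Cox6c, a small membrane subunit, of -0.07. The 7 genes of all complexes that were 2-fold lower in AB were Cox5a, Ndufa5, Cox7c, Uqcrh, Uqcrq, Ndufb7 and Cox6b1. The general forms of subunits that also have muscle forms followed the same order of columns. Cox6a1 had ratios of -0.11 in Null, -1.27 in B, -1.26 in A, -1.21 in BB and -0.94 in AB. Cox8a had ratios of -0.08 in Null, -1.15 in B, -1.08 in A, -0.88 in BB and -0.85 in AB, and Cox7a2 of -0.0039 in Null, -0.89 in B, -0.84 in A, -0.69 in BB and -0.61 in AB. Cox7a2l, which holds complexes III and IV together in supercomplexes, differed least in B and A, at 183 in Null, 172 in B, 177 in A, 179 in BB, 166 in AB and 229 in AABB. Ndufa4 followed the complex, at 660.0 in Null, 304 in B, 316 in A, 346 in BB, 392 in AB and 695 in AABB.

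Complex V had a smaller difference than complexes I, III and IV in B, A, BB and AB. Its 15 genes had medians of -0.11 in Null, -0.85 in B, -0.76 in A, -0.62 in BB and -0.50 in AB. Within it the 3 other membrane-sector subunits Atp5j2, Atp5k and Atp5l had a median of -1.27 in B, the 5 genes of the catalytic F1 head -0.76, the 4 stalk genes -0.74 and the 3 genes of the rotating c ring -0.78. Atp5b, the catalytic beta subunit, stood at 1275 in Null, 798 in B, 809.7 in A, 895 in BB, 1027 in AB and 1328 in AABB. Atp5d, the delta subunit of the F1 rotor, stood at 321 in Null, 136 in B, 135 in A, 195 in BB, 197 in AB and 347 in AABB, a ratio of -1.35 in B. Atp5c1, the gamma subunit, was the exception, at 236 in Null, 150.1 in B, 155 in A, 169 in BB, 189.6 in AB and 182 in AABB, where Null and AB were above AABB. Of the c ring genes, which encode the same mature protein, Atp5g3 was also highest in Null, at 803 in Null, 444 in B, 465 in A, 518 in BB, 547 in AB and 669 in AABB. Atp5g1 stood at 95.6 in Null, 70.6 in B, 72.1 in A, 84.8 in BB, 86.1 in AB and 122 in AABB. Atp5g2 stood at 379 in Null, 244 in B, 259.8 in A, 273 in BB, 254 in AB and 457 in AABB. Atp5j, a stalk subunit, had ratios of 0.18 in Null, -0.55 in B, -0.56 in A, -0.42 in BB and -0.20 in AB.

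The hypoxia-linked forms were expressed at much lower levels than the general forms. Cox4i2, the alternative form of subunit 4 known from lung and from low oxygen, stood at 6.90 in Null, 4.43 in B, 4.22 in A, 6.21 in BB, 6.79 in AB and 8.35 in AABB. Ndufa4l2, a relative of Ndufa4 that is induced by hypoxia, stood at 13.3 in Null, 4.08 in B, 4.16 in A, 12.0 in BB, 16.7 in AB and 14.8 in AABB. Ndufa4l2 was low in B and A, with ratios of -1.64 and -1.62, and stood highest in AB. Cox6b2, known as the testis form of subunit 6b, stood at 5.47 in Null, 3.29 in B, 3.00 in A, 3.17 in BB, 2.09 in AB and 4.89 in AABB.

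Brown adipocytes are very rich in mitochondria, and most of their markers were lower than in AABB at day 6. Of the 7 tested, 5 were at least 1.5-fold lower in B (15.7% of all genes), A (16.6%), BB (12.9%) and AB (15%). In Null 6 were (6.46%), with a list median of -1.15. Ppargc1a had ratios of -0.12 in Null, 0.08 in B, 0.09 in A and -0.15 in BB, and Dio2 of 0.15 in AB. The summed level of the 8 markers was 619 in Null, 137 in B, 141 in A, 127 in BB, 184 in AB and 1602 in AABB, and none was at 0. Ucp1, which uncouples respiration in brown fat, stood at 20.6 in Null, 7.57 in B, 3.36 in A, 2.02 in BB, 7.98 in AB and 309 in AABB. The brown and muscle form Cox7a1 stood at 55.3 in Null, 7.12 in B, 7.90 in A, 13.5 in BB, 29.4 in AB and 219 in AABB. Cox8b stood at 318 in Null, 77.1 in B, 83.2 in A, 92.1 in BB, 119 in AB and 704 in AABB. AABB was highest and Null next for the sum and for these 3 genes, so the 2 columns with the most respiratory chain transcript were also those with the most of these markers. Their ratio to each other differed from that of the respiratory chain genes: Null held 55.3 against 219 of Cox7a1, while the median level of the subunit genes was 232 in Null and 238 in AABB. The part of these cells in the result was not tested. With Null in place of AABB as the reference, the medians were -0.90 in B, -0.83 in A, -0.71 in BB and -0.60 in AB, and 72, 69, 58 and 43 genes were at least 1.5-fold lower, against 13.4%, 14.7%, 12.5% and 11.4% of all genes. This reference was chosen after the values were seen.

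Markers of other cell types were summed in the same way. The 10 white adipocyte markers summed to 48574 in Null, 24815 in B, 25374 in A, 22891 in BB, 30254 in AB and 20902 in AABB at day 6, lowest in AABB. The 15 skeletal muscle markers summed to 658 in Null, 53.1 in B, 103 in A, 171 in BB, 8209 in AB and 174 in AABB, so that the AB column held far more muscle transcript than the rest. Cox6a2, the muscle form of subunit 6a, stood at 5.51 in Null, 0.584 in B, 1.26 in A, 1.24 in BB, 42.2 in AB and 1.61 in AABB. The respiratory chain genes were lower in AB than in AABB. The summed luminal markers, given above, were highest in AABB and Null, as were the respiratory chain genes. Most single luminal markers did not set Null beside AABB. In Null 6 of the 12 were at least 1.5-fold lower than in AABB (6.46% of all genes), and in BB also 6 (12.9%). Their median ratios were -0.58 in Null and -0.61 in BB. In 4 lists AABB and Null stood below the 4 other columns. The 4 mast cell markers summed to 40.9 in Null, 429 in B, 410.3 in A, 331 in BB, 250.2 in AB and 12.0 in AABB, the 8 fibroblast markers to 1845 in Null, 4492 in B, 4215 in A, 8932 in BB, 8193 in AB and 2101 in AABB and the 7 basal epithelial markers to 494 in Null, 779 in B, 876 in A, 757 in BB, 755 in AB and 385 in AABB. The sum of the 5 macrophage markers had the same division, at 205 in Null, 297 in B, 292 in A, 321 in BB, 284 in AB and 232 in AABB. The 5 endothelial markers did not, at 178 in Null, 152 in B, 153 in A, 197 in BB, 232 in AB and 135 in AABB, nor did the 5 measured B and plasma cell markers, at 22.8 in Null, 211 in B, 148 in A, 26.9 in BB, 10.7 in AB and 6.12 in AABB. None of these markers was at 0 in any column. The sums hide differences within lists. Macrophage markers in B ran from -0.50 (Cd68) to 2.37 (Mrc1), with a median of 0.14, and 2 of the 5 were at least 1.5-fold higher (19.6% of all genes). The fibroblast marker Col1a1 was lower than in AABB in B (-0.88) and A (-1.02), while 6 of the 8 were at least 1.5-fold higher in B (19.6%) and A (18.8%). In whole tissue, fewer cells of a type and less RNA per cell cannot be told apart, and the part of each cell type was not tested.

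**Figure D2:**
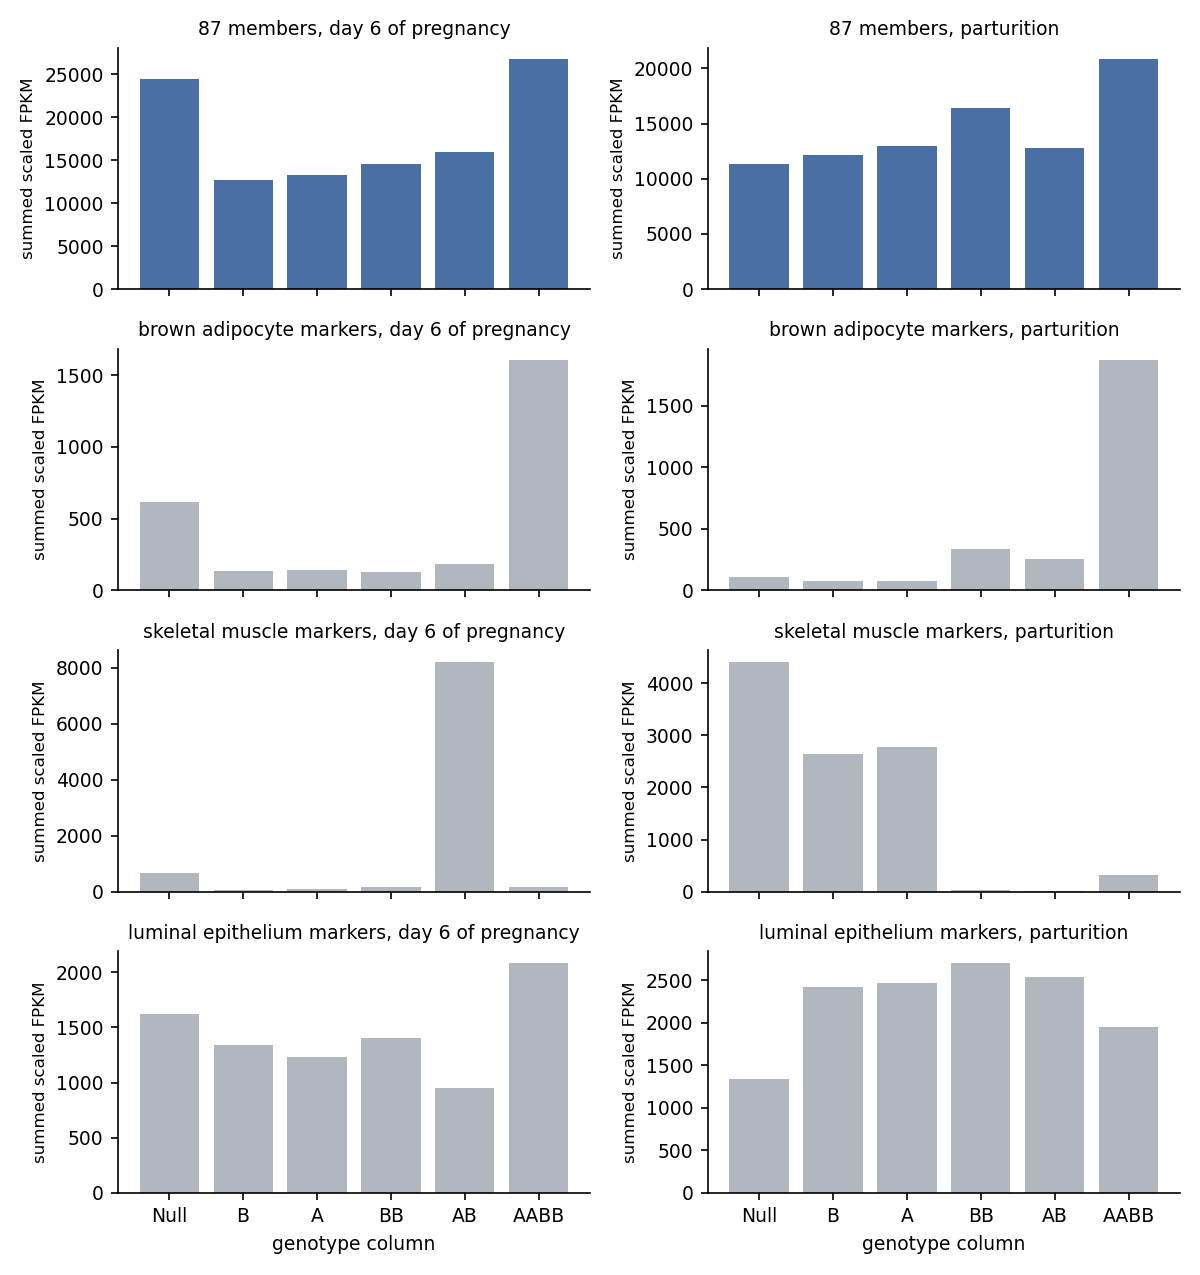
Summed scaled FPKM of the 87 respiratory chain genes (blue) and of brown adipocyte, skeletal muscle and luminal epithelial markers (grey) in each genotype column, at day 6 of pregnancy (left) and parturition (right); axes start at 0 and differ between panels. At day 6 the respiratory chain and brown adipocyte sums are highest in AABB and Null, while muscle markers are highest in AB, and at parturition in Null, A and B.

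At parturition the respiratory chain genes as a set were lower than in AABB in all 5 columns, Null included. On a scale of all FPKM with milk proteins the direction turned. Without scaling, the medians of A and BB lay close to AABB, as given in the last section. The median ratio over the 84 genes was -0.70 in Null, -0.68 in B, -0.54 in A, -0.33 in BB and -0.68 in AB. Over all 13061 genes tested the medians lay between 0.04 and 0.11. In Null, 50 of the 84 genes were at least 1.5-fold lower, against 20.1% of all genes tested, and 23 were at least 2-fold lower, against 10.7%. In B the counts were 51 (20%) and 18 (10.1%), and in A 39 (19.8%) and 13 (10%). In AB they were 53 (14.4%) and 12 (5.45%). BB was nearest to AABB, with 13 genes 1.5-fold lower (13.6% of all genes) and 3 genes 2-fold lower (5.37%), so its first count was near the background of all genes. Genes at least 1.5-fold higher numbered 2 in Null (30.4% of all genes), 2 in B (30.7%), 2 in A (29.8%), 3 in BB (18.6%) and 2 in AB (21.9%). AABB was the highest column for 62 genes and the lowest for 5, and Null was the lowest for 39. These orders, too, were not counted over all genes tested.

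The choice of scale matters at this stage because milk protein transcripts fill the RNA of AABB. As a share of all FPKM, the 87 genes held 2.90% in Null, 2.90% in B, 2.87% in A, 2.06% in BB, 1.70% in AB and 1.39% in AABB, so that Null, B and A had the highest shares and AABB the lowest. With the 9 milk protein genes left out of the total, the share was 2.92% in Null, 2.93% in B, 2.99% in A, 3.49% in BB, 2.98% in AB and 3.87% in AABB. Divided by the column sum with milk proteins, the median ratios turned positive, at 1.22 in Null, 1.15 in B, 1.18 in A, 0.57 in BB and 0.31 in AB, while the median over all genes tested then lay between 0.72 and 1.67. Without scaling, 20 genes in Null, 15 in B, 12 in A, 3 in BB and 27 in AB were at least 1.5-fold lower, against 10.4%, 9.41%, 9.94%, 7.27% and 8.54% of all genes tested on that scale, where the median of all genes lay between 0.23 and 0.53. Relative to the median of all genes, the set was lower in every column on each of these scales. At day 6 the share of all FPKM had the order of the levels, at 4.74% in Null, 2.99% in B, 3.08% in A, 3.18% in BB, 3.38% in AB and 5.26% in AABB.

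Complex I had medians of -0.66 in Null, -0.69 in B, -0.54 in A, -0.33 in BB and -0.67 in AB at parturition. Ndufc2, a membrane-arm subunit, stood at 89.0 in Null, 95.3 in B, 118 in A, 179.8 in BB, 136 in AB and 384 in AABB, with AABB apart from every other column. Ndufa1, a small membrane subunit, stood at 76.2 in Null, 90.4 in B, 102 in A, 123 in BB, 100.3 in AB and 318 in AABB. These were the lowest ratios of the complex in Null, -2.10 and -2.05, followed by Ndufb5 at -1.22. Ndufa1 was also the lowest of all 84 genes in BB (-1.36) and AB (-1.65). At the other end in Null stood Ndufa4l2, at 1.35. Next came Ndufv1, which binds NADH, at 64.2 in Null, 64.8 in B, 61.0 in A, 77.2 in BB, 61.6 in AB and 63.4 in AABB, and Ndufa10, with a Null ratio of 0.01. Ndufs1 stood at 47.1 in Null, 33.5 in B, 30.4 in A, 43.0 in BB, 33.9 in AB and 53.4 in AABB. The assembly factor Ndufaf4 stood at 8.80 in Null, 4.98 in B, 5.19 in A, 10.8 in BB, 7.57 in AB and 17.0 in AABB, unlike Ndufaf3, at 12.6 in Null, 12.4 in B, 12.4 in A, 14.7 in BB, 12.0 in AB and 10.3 in AABB.

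Complex II was nearer to AABB than the other complexes at parturition. Its medians were 0.07 in Null, -0.05 in B, -0.04 in A, -0.0012 in BB and -0.23 in AB. Sdhc stood at 88.9 in Null, 99.5 in B, 105 in A, 95.4 in BB, 88.2 in AB and 71.0 in AABB, lowest in AABB. Sdha stood at 144 in Null, 119 in B, 112 in A, 117 in BB, 104 in AB and 122 in AABB, highest in Null, and Sdhd at 96.3 in Null, 99.7 in B, 107 in A, 108 in BB, 87.8 in AB and 104 in AABB. Sdhb was the member with the pattern of the other complexes, at 126 in Null, 113 in B, 112 in A, 173 in BB, 122 in AB and 197 in AABB. No complex II gene was 2-fold lower in any column, and with 4 genes the medians rest on few values.

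Complex III had medians of -0.91 in Null, -0.76 in B, -0.70 in A, -0.34 in BB and -0.91 in AB. Uqcrq stood at 181 in Null, 192 in B, 193 in A, 262 in BB, 220.5 in AB and 458 in AABB, the lowest ratio of the complex in Null, B, A, BB and AB. The 5 small subunit genes had a median of -0.93 in Null, and the 3 others, Uqcrc1, Uqcrc2 and Uqcrfs1, -0.70. Uqcrc1, among the most lowered in B at day 6, differed little at parturition, at 109 in Null, 106 in B, 103 in A, 105 in BB, 125 in AB and 134 in AABB. Uqcrfs1, the Rieske iron-sulfur protein, had ratios of -0.70 in Null, -0.65 in B, -0.58 in A, -0.22 in BB and -0.69 in AB, and Uqcr10 of -0.93 in Null, -0.68 in B, -0.60 in A, -0.54 in BB and -0.95 in AB.

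Complex IV had medians of -0.80 in Null, -0.61 in B, -0.54 in A, -0.39 in BB and -0.63 in AB. Cox5a stood at 143 in Null, 138 in B, 145 in A, 178 in BB, 201 in AB and 427 in AABB, with AABB apart from every other column. Cox7b, Cox7c and Cox7a2, small membrane subunits, had Null ratios of -1.63, -1.53 and -1.44. Cox4i1 stood at 450.1 in Null, 532 in B, 547 in A, 827 in BB, 556 in AB and 784 in AABB, so BB was slightly above AABB. Cox6a1 had ratios of -1.22 in Null, -1.03 in B, -0.96 in A, -0.51 in BB and -0.63 in AB, and Cox8a of -0.68 in Null, -0.61 in B, -0.54 in A, -0.32 in BB and -0.56 in AB. Cox7a2l had a different order, at 113 in Null, 207 in B, 216 in A, 219 in BB, 143 in AB and 145 in AABB, with B, A and BB above AABB and Null below it. Ndufa4 stood at 349 in Null, 356 in B, 388 in A, 459 in BB, 353 in AB and 633 in AABB.

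Complex V had medians of -0.96 in Null, -0.82 in B, -0.68 in A, -0.35 in BB and -0.73 in AB, the lowest median of the complexes in Null. In Null the F1 head had a median of -0.54, the stalk -1.05, the c ring -1.10 and the other membrane subunits -1.21. Atp5b stood at 642 in Null, 652 in B, 607 in A, 843 in BB, 710.3 in AB and 763 in AABB, the smallest Null difference of the complex (-0.25). Atp5o, the stalk subunit that links head and membrane sector, stood at 237 in Null, 229 in B, 241 in A, 456 in BB, 331 in AB and 746 in AABB. Atp5l, a membrane subunit, had ratios of -1.38 in Null, -1.17 in B, -1.0 in A, -0.52 in BB and -1.03 in AB, and Atp5a1, the alpha subunit of the head, of -0.54 in Null, -0.40 in B, -0.42 in A, -0.02 in BB and -0.18 in AB.

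The c ring genes separated by gene. Atp5g1 stood at 62.6 in Null, 76.0 in B, 82.8 in A, 184 in BB, 171 in AB and 314 in AABB, in 3 steps, with Null, B and A lowest, AB and BB between and AABB highest. Its Null ratio, -2.31, was the lowest of all 84 genes, and it was also the lowest in B (-2.03) and A (-1.91). Atp5g2 stood at 193 in Null, 258 in B, 283 in A, 336 in BB, 246 in AB and 283 in AABB, with A level with AABB and BB above it. Atp5g3 stood at 294 in Null, 349 in B, 378 in A, 434 in BB, 381 in AB and 632 in AABB. At day 6 the same 3 genes had B ratios of -0.78, -0.90 and -0.59.

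**Figure D3:**
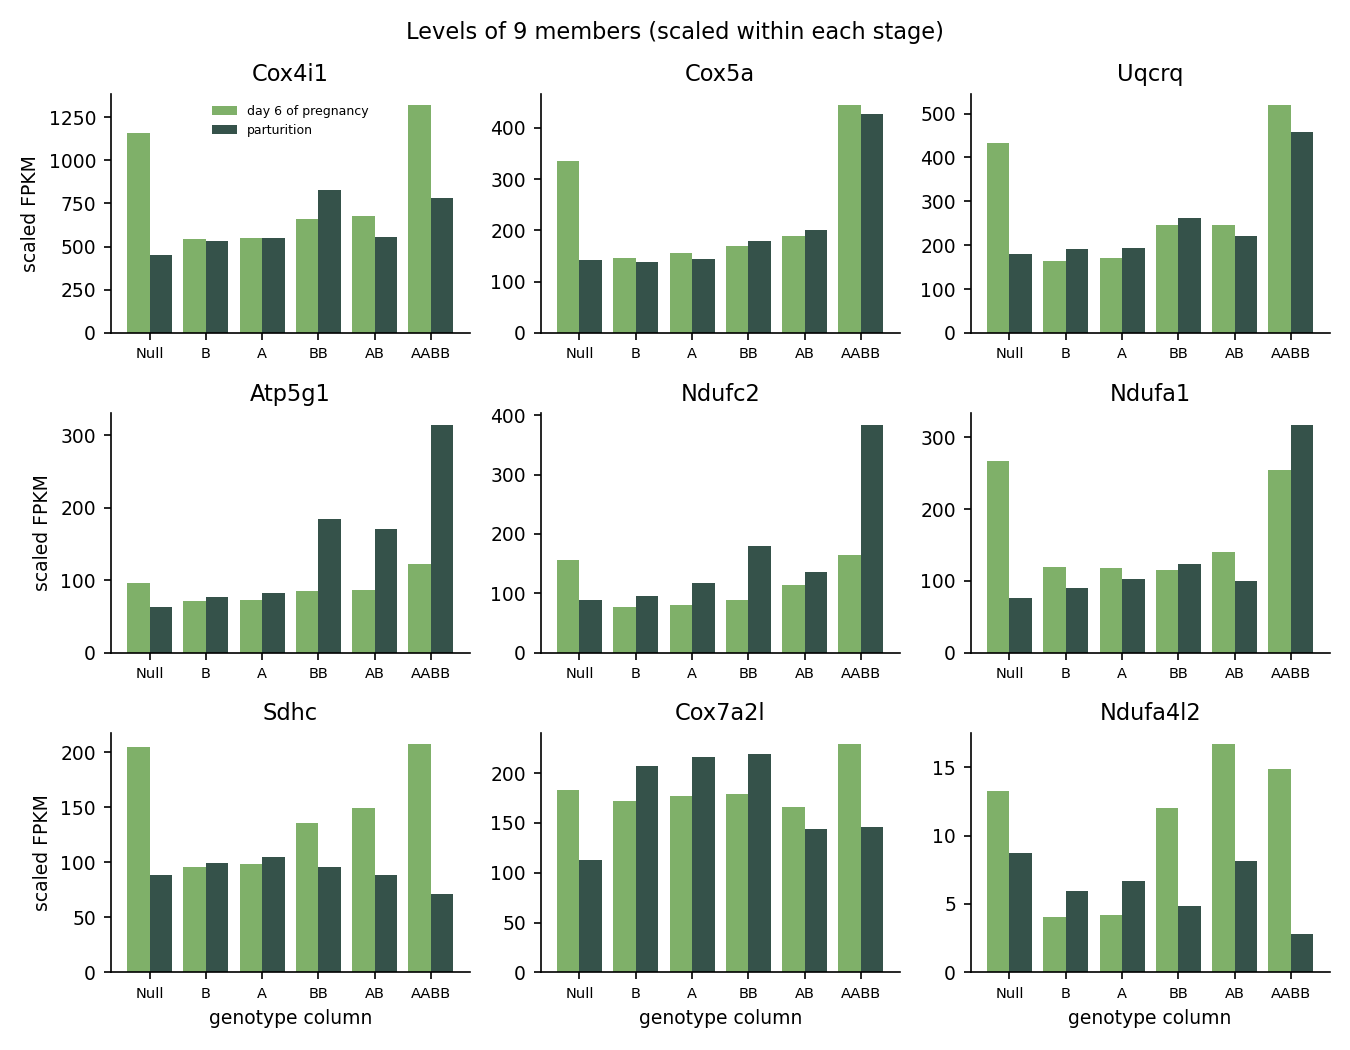
Scaled FPKM of 9 respiratory chain genes in each genotype column at day 6 of pregnancy (light bars) and parturition (dark bars); each bar is the authors' mean without an error, axes start at 0, and stages were scaled separately. Cox4i1, Cox5a and Uqcrq show the high AABB and Null bars of day 6, Atp5g1, Ndufc2 and Ndufa1 the high AABB bar of parturition, and Sdhc, Cox7a2l and Ndufa4l2 depart from it.

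Genes at least 1.5-fold higher than AABB at parturition were Ndufa4l2 and Cox6b2, both weakly expressed, in all 5 columns, and the abundant Cox7a2l in BB (0.59). Ndufa4l2 stood at 8.74 in Null, 5.96 in B, 6.70 in A, 4.88 in BB, 8.15 in AB and 2.83 in AABB, higher in every column than in AABB. Cox6b2 stood at 2.53 in Null, 2.53 in B, 3.76 in A, 2.33 in BB, 2.12 in AB and 0.718 in AABB, also lowest in AABB, on a level near 1 FPKM where the added 1 shrinks the ratio. Cox4i2 stood at 5.18 in Null, 4.98 in B, 4.36 in A, 2.66 in BB, 4.13 in AB and 3.71 in AABB. Among the names that are not subunits, Cox4nb had ratios of 0.50 in Null, 0.22 in B, 0.26 in A, 0.05 in BB and 0.07 in AB, and Atp5s of 0.34 in Null, 0.04 in B, 0.07 in A, 0.17 in BB and -0.20 in AB. Atp5sl stood between 9.01 and 10.4 in all columns.

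Null thus stood near AABB at day 6 and below it at parturition. The 50 genes that were 1.5-fold lower in Null at parturition had a median Null ratio of -0.14 at day 6, with a range from -0.44 to 0.26. The 23 that were 2-fold lower had a day 6 median of -0.17. Atp5g1 went from -0.35 to -2.31, Ndufa1 from 0.07 to -2.05 and Cox7a2 from -0.0039 to -1.44. Each ratio is against the AABB column of its own stage, and the difference between stages was not tested, since no sample values enter it.

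**Figure D4:**
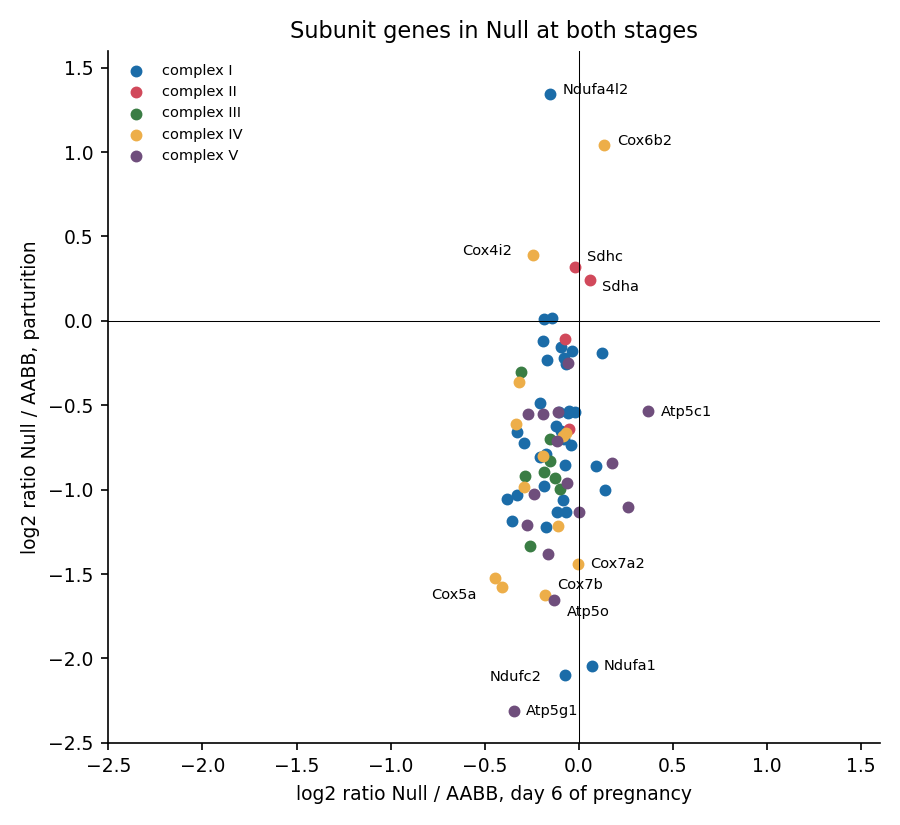
Log2 ratio of Null to AABB for each subunit gene that passed the filter, at day 6 of pregnancy (x axis) and at parturition (y axis), coloured by complex. The points lie between -0.44 and 0.37 on the x axis and spread from -2.31 to 1.35 on the y axis.

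Tissue markers were summed at parturition as well. Cox8b stood at 59.7 in Null, 29.0 in B, 28.1 in A, 21.8 in BB, 13.7 in AB and 12.8 in AABB and Cox7a1 at 13.8 in Null, 10.8 in B, 11.0 in A, 14.8 in BB, 4.81 in AB and 12.6 in AABB, so AABB was not the high column for either. Ucp1 stood at 4.03 in Null, 4.72 in B, 0.568 in A, 21.6 in BB, 3.70 in AB and 11.8 in AABB. The sum of the brown adipocyte list, 107 in Null, 77.7 in B, 75.7 in A, 336 in BB, 256 in AB and 1868 in AABB, came mainly from Cidea in AABB (1828), a lipid-droplet gene that secreting mammary epithelium also expresses. Skeletal muscle markers summed to 4415 in Null, 2637 in B, 2786 in A, 22.2 in BB, 19.5 in AB and 310.3 in AABB, and Cox6a2 stood at 35.8 in Null, 11.1 in B, 15.5 in A, 0.0690 in BB, 0.171 in AB and 2.65 in AABB. Null, B and A, the columns with the most muscle transcript, were lower in the respiratory chain genes than AABB. White adipocyte markers summed to 30679.9 in Null, 20795 in B, 22634 in A, 9656 in BB, 8438 in AB and 4805 in AABB and luminal markers to 1335 in Null, 2415 in B, 2467 in A, 2703 in BB, 2541 in AB and 1953 in AABB. The median luminal level had another order, at 57.5 in Null, 91.9 in B, 102 in A, 122 in BB, 163 in AB and 153 in AABB. Luminal ratios in Null ran from -4.27 (Muc1) to 1.29 (Prom1). In 3 lists AABB stood below all 5 other columns, with fibroblast markers at 2162 in Null, 1913 in B, 1541 in A, 2306 in BB, 2287 in AB and 385 in AABB, mast cell markers at 121 in Null, 161 in B, 92.9 in A, 122 in BB, 96.8 in AB and 8.35 in AABB and endothelial markers at 222 in Null, 171 in B, 184 in A, 126 in BB, 174 in AB and 77.2 in AABB. The white adipocyte sum was also lowest in AABB. Basal markers, at 538 in Null, 1073 in B, 885 in A, 1989.7 in BB, 1366 in AB and 808 in AABB, macrophage markers, at 123 in Null, 299 in B, 352 in A, 407 in BB, 448 in AB and 188 in AABB, and B and plasma cell markers, at 15.1 in Null, 9.42 in B, 3.16 in A, 9.16 in BB, 22.5 in AB and 22.4 in AABB, did not set AABB apart. None of the markers was at 0. The part of these cell types in the ratios was not tested.

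Pairs of columns other than those with AABB were compared after their values were seen. A against B, which keep 1 allele of different genes, had a median of 0.06 at day 6, against -0.0035 over all genes tested. None of the 84 genes was past 1.5-fold in either direction (0.868% of all genes lower, 0.404% higher). At parturition the A to B median was 0.10. BB against B, 2 Stat5b alleles against 1, had medians of 0.19 at day 6 and 0.38 at parturition, where 20 genes were at least 1.5-fold higher (9.89% of all genes) and 1 lower (16.4%). AB against BB, both with 2 alleles, had medians of 0.13 at day 6 and -0.35 at parturition, with 3 genes lower (3.87%) and 1 higher (8.05%). Against Null at parturition, the medians were 0.03 in B, 0.13 in A, 0.42 in BB and 0.07 in AB, and BB had 30 genes at least 1.5-fold higher (14.5%). The labels give A and B samples tags with shared numbers, and whether these name the same animals or runs is not stated.

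Other mitochondrial gene lists, made up by function, were set beside the chain. The TCA cycle list, 16 genes that feed NADH and succinate to the chain, had medians of -0.17 in Null, -0.81 in B, -0.74 in A, -0.58 in BB and -0.48 in AB at day 6, with 12 genes 1.5-fold lower in B (15.7% of all genes tested) and none in Null (6.46%). At parturition its medians were -0.41 in Null, -0.54 in B, -0.53 in A, 0.03 in BB and -0.33 in AB. Pdhb, a pyruvate dehydrogenase subunit, stood there at 150.2 in Null, 97.1 in B, 93.1 in A, 204 in BB, 134 in AB and 525 in AABB. Ogdh, of the oxoglutarate dehydrogenase step, went the other way, at 65.7 in Null, 52.5 in B, 46.5 in A, 35.8 in BB, 48.1 in AB and 31.1 in AABB.

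Fatty acid oxidation genes differed from the chain in direction between the stages. Their 12 tested genes had medians of -0.05 in Null, -1.0 in B, -0.95 in A, -0.83 in BB and -0.78 in AB at day 6, where 9 were 1.5-fold lower (15.7% of all genes) and 1 higher (19.6%) in B. At parturition the medians were 0.93 in Null, 0.63 in B, 0.55 in A, 0.74 in BB and 0.40 in AB, and 9 of 12 were 1.5-fold higher in Null (30.4% of all genes) and none lower (20.1%). Cpt1a, which admits long-chain fatty acids to mitochondria, stood at 17.0 in Null, 32.8 in B, 25.9 in A, 19.9 in BB, 23.8 in AB and 4.56 in AABB. Acadl, a dehydrogenase of long chains, stood at 134 in Null, 132 in B, 134 in A, 199 in BB, 159 in AB and 50.8 in AABB. Acaa2, the last step of the cycle, stood at 216 in Null, 101 in B, 103 in A, 134 in BB, 105 in AB and 369 in AABB at day 6.

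The 76 mitochondrial ribosome genes had medians of -0.13 in Null, -0.70 in B, -0.61 in A, -0.53 in BB and -0.49 in AB at day 6, with 52 genes 1.5-fold lower in B (15.7% of all genes), and of -0.47 in Null, -0.45 in B, -0.40 in A, -0.14 in BB and -0.36 in AB at parturition, with 30 lower (20.1%) and 1 higher (30.4%) in Null. Mrpl12 stood at 79.5 in Null, 68.4 in B, 78.8 in A, 149 in BB, 109.9 in AB and 222 in AABB at parturition. The 20 tested protein import genes had medians of -0.16 in Null, -0.71 in B, -0.69 in A, -0.70 in BB and -0.54 in AB at day 6 and of -0.55 in Null, -0.76 in B, -0.60 in A, -0.21 in BB and -0.48 in AB at parturition. Timm8b, a small chaperone of import, stood at 54.2 in Null, 52.2 in B, 54.9 in A, 81.0 in BB, 59.0 in AB and 161 in AABB at parturition. In both lists Null was the column nearest to AABB at day 6, and BB the nearest at parturition, as in the respiratory chain.

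Assembly factors outside the symbol rule differed less. The 23 tested genes had medians of -0.0023 in Null, -0.26 in B, -0.18 in A, -0.21 in BB and -0.24 in AB at day 6 and of 0.12 in Null, -0.15 in B, -0.10 in A, -0.09 in BB and -0.10 in AB at parturition, where 3 were 1.5-fold lower (20.1% of all genes) and 3 higher (30.4%) in Null. Atpaf2, which helps to build the F1 head, stood at 28.9 in Null, 15.2 in B, 15.7 in A, 15.8 in BB, 15.8 in AB and 17.0 in AABB at parturition. The 16 genes of electron carriers and coenzyme Q synthesis had medians of -0.03 in Null, -0.67 in B, -0.66 in A, -0.73 in BB and -0.57 in AB at day 6 and of 0.0077 in Null, -0.19 in B, -0.24 in A, -0.03 in BB and -0.26 in AB at parturition. Cyc1, the cytochrome c1 of complex III that the rule does not take by name, stood at 277 in Null, 113 in B, 114 in A, 167 in BB, 183 in AB and 319 in AABB at day 6. Cycs, cytochrome c, stood at 86.4 in Null, 58.0 in B, 61.0 in A, 60.0 in BB, 66.4 in AB and 105 in AABB.

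The 7 genes of carriers and channels had medians of 0.03 in Null, -0.42 in B, -0.39 in A, -0.33 in BB and -0.08 in AB at day 6 and of -0.26 in Null, -0.18 in B, -0.11 in A, 0.08 in BB and -0.13 in AB at parturition. The ADP/ATP carriers Slc25a4 and Slc25a5 had opposite orders there. Slc25a4, the form of heart and muscle, stood at 248 in Null, 207 in B, 210.4 in A, 167 in BB, 145 in AB and 111 in AABB. Slc25a5, the form of dividing cells, stood at 254 in Null, 263 in B, 261 in A, 501 in BB, 416 in AB and 585 in AABB. Glycolysis, outside the mitochondrion, had medians of -0.25 in Null, -0.76 in B, -0.72 in A, -0.40 in BB and -0.19 in AB at day 6 and of -0.09 in Null, -0.66 in B, -0.52 in A, -0.07 in BB and -0.37 in AB at parturition, with 7 of 17 genes lower (20.1% of all genes) and 5 higher (30.4%) in Null, so that its share of higher genes was near that of all genes. Its highest genes in Null at parturition, Eno3 (3.06) and Pfkm (2.15), are muscle forms, and Aldoc was the lowest (-4.83).

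**Figure D5:**
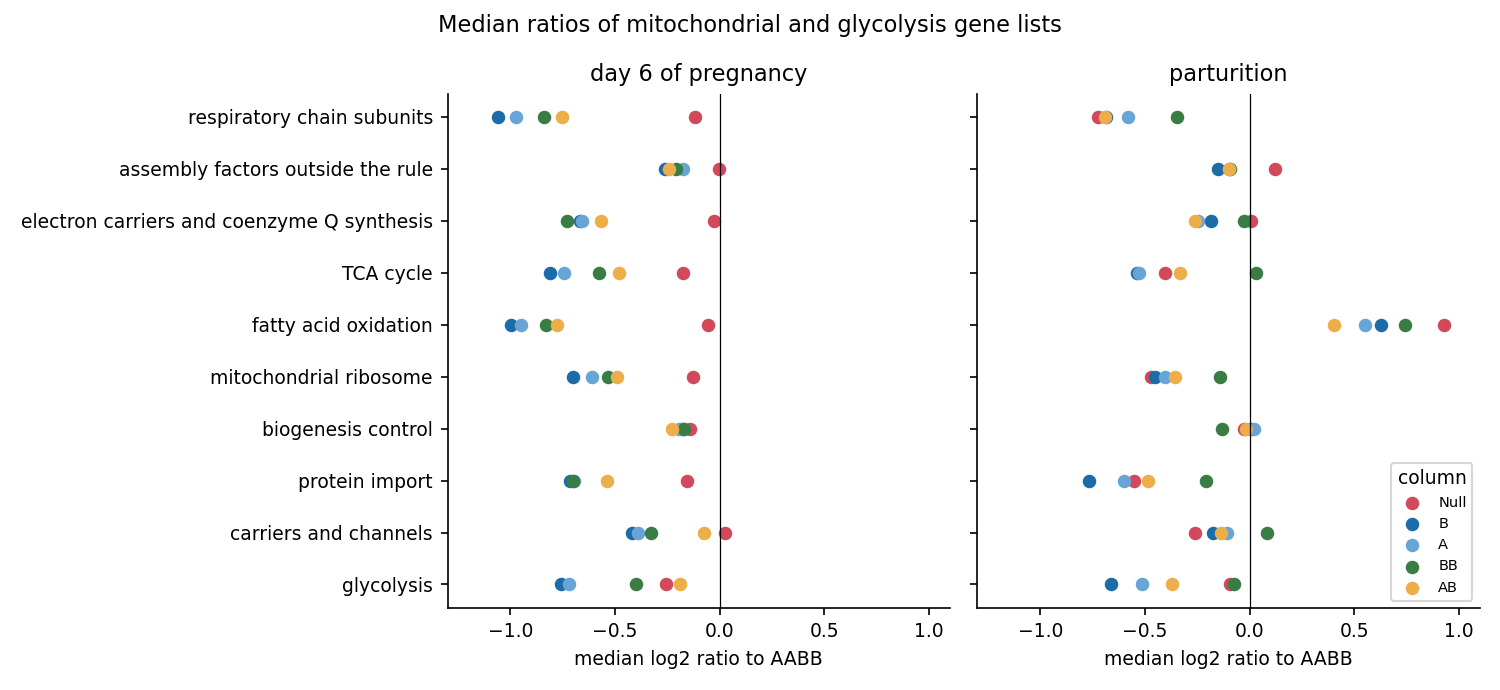
Median log2 ratio to AABB of the respiratory chain subunit genes and of 9 other gene lists (rows) in each genotype column (colours), at day 6 of pregnancy (left) and parturition (right). Respiratory chain subunits have the lowest medians of all lists in B at day 6, and at parturition fatty acid oxidation stands apart on the right, between 0.40 in AB and 0.93 in Null.

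Among the regulators of mitochondrial biogenesis, Esrra encodes a nuclear receptor that acts at respiratory chain genes. It was high in AABB and Null at day 6 and in AABB at parturition. Its level stood at 32.7 in Null, 16.5 in B, 15.2 in A, 17.1 in BB, 16.8 in AB and 39.6 in AABB at day 6 and at 16.3 in Null, 15.9 in B, 17.96 in A, 17.3 in BB, 20.9 in AB and 34.2 in AABB at parturition. The 14 genes of the list had medians of -0.14 in Null, -0.18 in B, -0.20 in A, -0.17 in BB and -0.23 in AB at day 6, and the median ratios at parturition lay between -0.13 and 0.02. In B at day 6, 2 of the 14 were 1.5-fold lower (15.7% of all genes) and 1 higher (19.6%). Esrra had the lowest ratio of the list in B, A, BB and AB at day 6. Gabpa had the highest there, at 0.60 in B, 0.61 in A, 0.40 in BB and 0.34 in AB. Tfam, which packs and transcribes mitochondrial DNA, stayed between 10.5 and 12.0 at day 6 and between 9.32 and 11.4 at parturition. Nrf1 stayed between 4.56 and 5.73 and between 4.32 and 4.87. The coactivator Ppargc1a was near 1 at day 6 (0.929 to 1.29) and stood at 2.34 in Null, 0.988 in B, 1.09 in A, 1.24 in BB, 0.789 in AB and 0.438 in AABB at parturition. Ppargc1b stood at 2.82 in Null, 2.10 in B, 2.02 in A, 1.69 in BB, 1.84 in AB and 2.82 in AABB at day 6.

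The presence of a promoter motif went with little difference in ratio. Genes with an NRF1, ETS or YY1 match had a median B ratio of -1.06 at day 6 (37 genes) and those without a match -1.0 (33 genes). At parturition the Null medians were -0.70 and -0.71.

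Levels over the 12 columns, centred within stage, were compared with the median of the respiratory chain subunit genes. Most like it were 2310028O11Rik and Polr2c (both Pearson r = 0.99) and Swi5 (0.989), of 7331 genes compared. Close behind stood the mitochondrial ribosome genes Mrpl2 (0.98), Mrpl51 (0.972), Mrpl33 (0.97) and Mrpl20 (0.969), among others such as 2900053A13Rik (0.981) and Churc1 (0.976). Genes compared reached 5 FPKM in at least 2 columns at each stage and varied over the columns. Columns of a stage share the mean used for centring, so this is a description.

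Respiratory chain transcripts are short as annotated. A gene's length here is the median over its annotated coding transcripts, not the length of the transcript expressed. Ndufs1 has 651 bases by this measure, Uqcrc1 533 and Ndufb2 2413, so single lengths can be far from those of the main transcript. The median length of the respiratory chain genes was 707.5 bases, against 2104 for all genes tested at day 6, and their GC content 52.2% against 51.0%. Among the 42 genes shorter by this measure the median was -1.09 in B at day 6 and -0.92 in Null at parturition, and among the 42 longer ones -0.93 and -0.54. Many of these genes have processed pseudogenes with near-identical sequence, and how the authors' alignment shared such reads is not given in the sources used here, so single levels are uncertain to that degree.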

How the data were processed

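Poly(A) RNA libraries from 31 mammary tissue samples were made with a TruSeq kit and read on a HiSeq sequencer, per the labels' protocols. Base calling with CASAVA and alignment with TopHat to the mouse build mm9 are named in the submitters' processing notes, without versions. The program that computed FPKM, the gene annotation and its treatment of multiply mapped reads are not given in the sources used here. The deposited values are FPKM per gene symbol, averaged by the authors over the samples of a genotype and stage. Per the labels, tissue came from 2 mice of a genotype, yet up to 3 samples are listed.

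To scale a stage, each of its 6 columns was divided by its median ratio to the geometric mean of all 6, taken over genes that reached 1 FPKM throughout (11733 at day 6, 10864 at parturition). Genes reaching 1 FPKM in at least 2 columns were compared. The value computed from the deposited FPKM is the log2 ratio of scaled FPKM + 1. Tests, fits without a replicate and a replicate block need sample values and were not run. The unit found in the files is the one the design allowed for.

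A split of complex I into core and accessory genes is not reported here. The genes, lists and motifs were chosen with earlier results of these data known. Genes named are, per complex and comparison, those with the highest and lowest ratios, for Null the 3 highest and 3 lowest per complex, the complex II genes, tissue and hypoxia forms, c ring genes, and up to 4 genes of each other list. Others, such as Ndufs1 at parturition, Uqcrfs1, Atp5d and Gabpa, were chosen after their values were seen. Alternatives were a pseudocount of 0.1, no filter, a floor of 5 FPKM, no scaling, scaling over genes of at least 10 FPKM, removal of a lowess trend on transcript length and GC content, and subunits only. Division by the column sum with or without milk proteins, and Null as the reference, were added after seeing the data. Transcript lengths and GC content, matched by symbol or by a single synonym and found for all 87 genes, were medians over a gene's annotated coding transcripts. The trend removal used the same values and shares their limits. Promoter windows came from RefSeq (GRCm38.p6), a build whose coordinates were not mixed with mm9. Ratios and scaling were also tested on simulated data. Python 3.11.15, numpy 2.4.6, pandas 2.3.3, statsmodels 0.14.6 and matplotlib 3.10.9 were used.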

Additional observations from a re-analysis of the deposited data

How the results depend on the processing

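The tables hold means, so leaving out replicates could not be done, and differences between samples of a group are unknown. No paired analysis was possible because the columns carry no replicate numbers. Read depth is unknown and no counting error could be given. A median ratio was taken as unmoved when it shifted by less than 0.1 on the log2 scale. A pseudocount of 0.1, no filter, a floor of 5 FPKM and subunits only moved no median by that much. At day 6 every median stayed below 0 under each alternative. Median ratios without scaling were -0.22 in Null, -0.95 in BB and -0.90 in AB at day 6 and -0.23 in Null, -0.17 in B, -0.074 in A, -0.026 in BB and -0.44 in AB at parturition. With scaling over genes of at least 10 FPKM they were -0.91 in B and -0.81 in A at day 6 and -0.43 in Null, -0.44 in B, -0.34 in A and -0.54 in AB at parturition. After removal of the length and GC trend they were -0.69 in B, -0.61 in A, -0.56 in BB and -0.43 in AB at day 6 and -0.46 in Null, -0.47 in B, -0.44 in A and -0.45 in AB at parturition. With the column sum without milk proteins they were -0.81 in B, -0.72 in A and -0.70 in BB at day 6 and -0.24 in Null, -0.30 in B, -0.23 in A, -0.14 in BB and -0.35 in AB at parturition. With the column sum including milk proteins they were -0.79 in B, -0.70 in A, -0.68 in BB and -0.62 in AB at day 6. At parturition that scale turned every median, to 1.22 in Null, 1.15 in B, 1.18 in A, 0.57 in BB and 0.31 in AB; all genes tested then had medians from 0.72 to 1.67, since milk proteins take a large share of the AABB total. With Null as the reference at day 6 they were -0.90 in B, -0.83 in A, -0.71 in BB and -0.60 in AB. Relative to the median of all genes tested, the parturition medians ranged over the alternatives from -0.83 to -0.45 in Null and from -0.40 to -0.15 in BB. The counts of genes at least 1.5-fold lower at parturition, in Null, B, A, BB and AB in that order, were 50, 51, 39, 13 and 53, and became 20, 15, 12, 3 and 27 without scaling; 35, 33, 29, 13 and 29 after removal of the length and GC trend. They became 32, 30, 26, 12 and 34 with scaling over genes of at least 10 FPKM; 20, 20, 17, 4 and 19 with the column sum without milk proteins. The counts of genes at least 2-fold lower at day 6, 50 in B, 34 in A, 20 in BB and 7 in AB, became 13, 9, 4 and 1 after removal of the length and GC trend, and 45, 29, 32 and 27 without scaling. Among all genes tested, the 1.5-fold lower share at parturition ran over the 5 comparisons from 7.27% to 10.4% without scaling, from 10.7% to 17.6% after removal of the trend, from 10.7% to 14.8% with scaling over genes of at least 10 FPKM and from 7.32% to 12.5% with the column sum without milk proteins. The BB counts of 3 without scaling and 4 with the column sum without milk proteins lay below the shares of all genes, 7.27% and 9.02%. The 2-fold lower share of all genes at day 6 was 2.94% in B, 2.76% in A, 2.6% in BB and 3.72% in AB after removal of the trend. The AB count of 1 lay below that share. Without scaling the share was 4.77% in B, 5.11% in A, 4.97% in BB and 7.46% in AB. The cause was not tested.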
